A study of Homo sapiens with 5 samples.

Results

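Ubiquitin-conjugating enzymes (E2 enzymes) were examined through every protein-coding human gene whose symbol begins with *UBE2*. GENCODE release 44 holds 37 such genes on GRCh38, 35 of which had a row among the 27328 genes of the count table. *UBE2QL1* and *UBE2U* were not in it. The rule was a name rule and used no measured value, but the family was chosen with earlier results of these data known. Pseudogenes were left out of the members and are described separately, and the readthrough gene *UBE2F-SCLY* was kept because it is annotated as protein-coding.

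The RNA came from TF-1, a human acute myeloid leukemia line with erythroid features that depends on GM-CSF for growth. All cells had been transduced with a lentivirus carrying Cas9, GFP and an sgRNA, and each library was made from a pool of 4 single-cell clones grown in logarithmic phase. The 2 control pools (sgCtrl pools 1 and 2) carried a guide against no human gene, and the 3 *MTSS1* knockout pools (sgMTSS1_1, sgMTSS1_2 and sgMTSS1_3) carried a different *MTSS1* guide each, with loss of the protein shown by immunoblot in the study. The contrast asked which mRNAs differ in leukemia cells without MTSS1, a protein that links the membrane to the actin cytoskeleton. A further control pool and a sgMTSS1_4 pool were set aside by the authors as outliers and were not analysed here.

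Ubiquitin is activated by an E1 enzyme, passed as a thioester to the active-site cysteine of an E2, and placed on a substrate with the help of an E3 ligase. With many E3 ligases, though not all, the E2 largely sets what is built. Some E2 enzymes attach the initial ubiquitin and some extend chains through a given lysine. A few carry ubiquitin-like proteins such as SUMO, NEDD8 or ISG15 instead. In blood cells E2 enzymes are known for roles in cell division, in the repair of damaged DNA and in the clearance of proteins during red cell maturation.

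Library totals ran from 2849979 to 3408827 counts in the controls against from 5442639 to 8854899 in the knockout pools, so every knockout library was deeper than either control. A floor of 3 counts corresponded to between 0.389 and 0.938 CPM, the counts scaled to the effective library size. All 11 listed markers of myeloid and erythroid progenitors passed the filter on low counts, and their summed level ran from 1213 to 1710 CPM in the controls and from 1067 to 1380 CPM in the knockout pools. Of 5 stromal and epithelial markers 0 passed, and of 5 lymphoid markers 2 passed, with a summed lymphoid level of at most 12.8 CPM. *MTSS1* mRNA measured 204 and 87.9 CPM in the controls against 104, 139 and 49.9 CPM in the sgMTSS1_1, _2 and _3 pools (log2 fold change −0.58 ± 0.47 SE, adjusted p = 0.494, edgeR). The groups overlapped. The sgMTSS1_1 and sgMTSS1_2 guides cut in exon 1 and the counts come from mRNA 3′ ends, so these counts do not check the knockout.

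Across the 31 UBE2 genes with enough counts to be tested, the knockout pools showed 1 called change, a rise of *UBE2D3*. A gene was called when its adjusted p in edgeR's quasi-likelihood test fell below 0.05 over all 14391 tested genes and its log2 fold change lay above 1 or below −1. The call rate was 3.23% (1 of 31), against 5.18% of all tested genes (745) and 4.17% when calls in the higher direction alone are counted (600). Of the 31, 18 had a positive and 13 a negative log2 fold change, and 9 (29.0%) had an unadjusted p under 0.05, against 23.3% of all tested genes. The median log2 fold change was 0.22 over the UBE2 genes and −0.03 over all tested genes. Every knockout pool lay above both control pools for 9 UBE2 genes (29.0%) and below both for 6 (19.4%), while the corresponding shares of all tested genes were 22.2% and 19.2%. These shares lie near the background, so the family as a whole did not stand out from other genes by these counts.

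**Figure D1:**
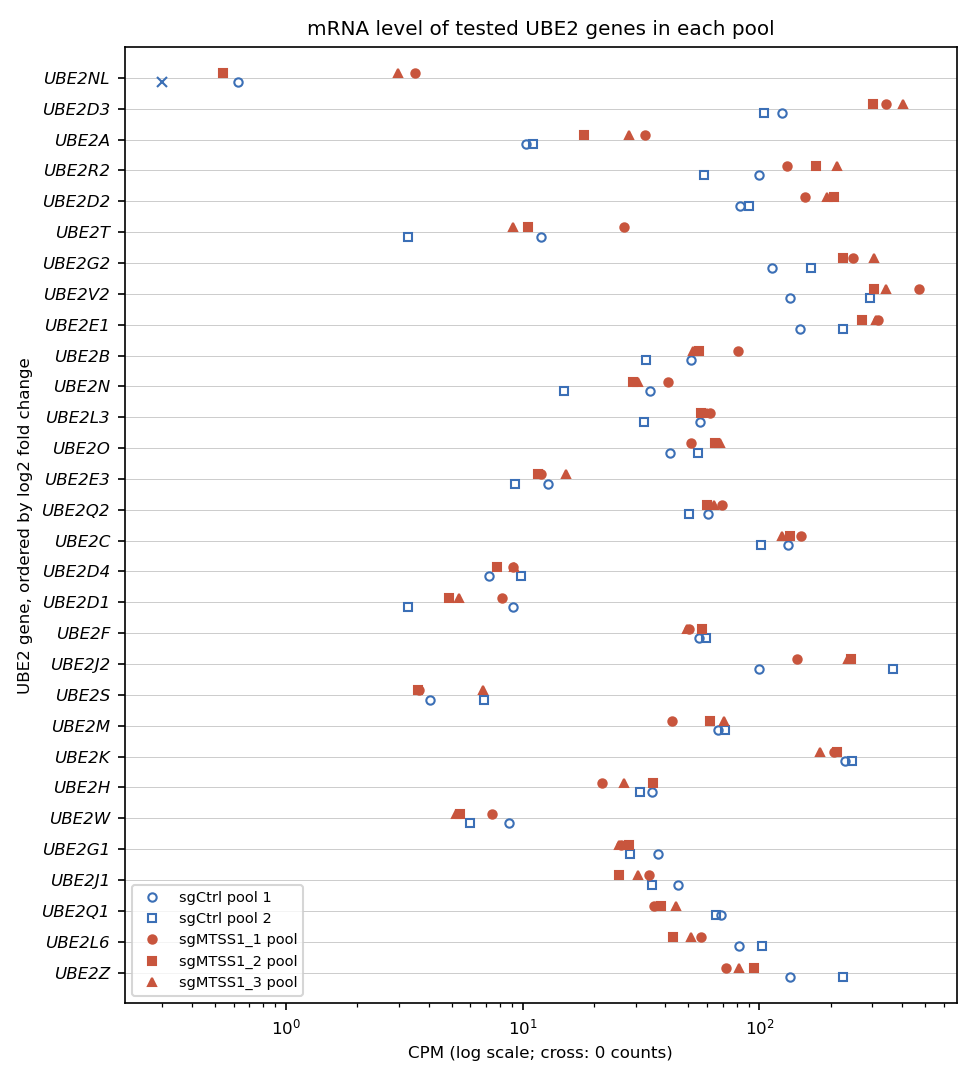
Level of 30 of the 31 tested UBE2 genes in each pool, in CPM on a log axis, with genes ordered by log2 fold change. Open blue symbols are the 2 control pools and filled red symbols the 3 knockout pools; a cross marks 0 counts. For *UBE2D3* the knockout pools sit between 303 and 403 CPM, all above the control pools at 105 and 125 CPM, whereas for *UBE2Z*, at the bottom, all knockout pools sit below both controls.

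The share of all counts that fell on UBE2 genes was 0.238% and 0.261% in the controls and 0.262%, 0.296% and 0.314% in the knockout pools. *UBE2D3* alone made up 5.9% and 3.97% of those counts in the controls against 11.4%, 10.4% and 12.7% in the knockout pools.

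A promoter window each is shown for *UBE2D3*, the called gene, for its paralog *UBE2D2*, whose knockout pools also lay above both controls, and for *UBE2Z*, the UBE2 gene with the lowest log2 fold change. Each window runs from 250 bases before to 50 bases after an annotated start (RefSeq, GRCh38.p14) and is written 5′ to 3′ on the gene's strand. Capitals mark the GC box GGGCGG and the CCAAT box CCAAT, searched on both strands. The windows are chr4:102868846-102869145 on the minus strand for *UBE2D3*, whose annotation holds further start sites, chr5:139561089-139561388 on the plus strand for *UBE2D2*, and chr17:48908157-48908456 on the plus strand for *UBE2Z*.
UBE2D3: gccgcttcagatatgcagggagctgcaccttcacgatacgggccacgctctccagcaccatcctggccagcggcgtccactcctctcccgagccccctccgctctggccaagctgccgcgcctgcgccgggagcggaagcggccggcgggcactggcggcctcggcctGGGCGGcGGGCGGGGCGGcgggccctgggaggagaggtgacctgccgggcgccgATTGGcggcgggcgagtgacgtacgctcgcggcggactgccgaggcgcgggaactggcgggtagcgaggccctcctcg
UBE2D2: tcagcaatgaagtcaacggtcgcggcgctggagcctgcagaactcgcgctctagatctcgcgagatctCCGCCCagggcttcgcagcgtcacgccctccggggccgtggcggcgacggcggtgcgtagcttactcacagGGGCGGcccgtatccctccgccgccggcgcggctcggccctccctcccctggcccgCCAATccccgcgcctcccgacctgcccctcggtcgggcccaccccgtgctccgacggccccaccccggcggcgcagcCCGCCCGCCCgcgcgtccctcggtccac
UBE2Z: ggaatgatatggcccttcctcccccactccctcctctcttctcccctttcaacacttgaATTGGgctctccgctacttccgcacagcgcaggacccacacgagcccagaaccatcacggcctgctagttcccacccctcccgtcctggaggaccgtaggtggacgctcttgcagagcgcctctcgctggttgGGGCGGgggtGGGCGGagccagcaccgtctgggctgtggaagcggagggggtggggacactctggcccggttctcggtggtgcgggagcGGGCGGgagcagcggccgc

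The *UBE2D3* window held 3 GC boxes and 1 CCAAT box, the *UBE2D2* window 4 and 1, and the *UBE2Z* window 3 and 1. The other 5 windows of *UBE2D3* are at further annotated starts, and a GC box was found in 2 of them and a CCAAT box in 2. Over the whole family, 28 genes had 40 windows in the table, some of them overlapping. A GC box was present in 77.5% of those windows (24 of 28 genes), against 45.0% of all 35116 windows in the table, and the median GC content was 70.5% against 58.7%. The CCAAT box was present in 30.0% of member windows and 34.6% of all windows. The ETS core CCGGAAG was present in 15.0% and 10.3%. The E box CACGTG was in 0 of the 40 member windows and in 7.26% of all windows, and the TATA box TATAAA in 5.0% and 11.5%. A match describes the letters of a window only.

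The E2 enzymes that serve many RING ligases, or that place the initial ubiquitin on a substrate, held the called gene. In this group 7 of 8 listed genes were tested, with a median log2 fold change of 0.23. Of these, 3 (42.9%) lay above both controls in every knockout pool and 0 below, beside 22.2% and 19.2% of all tested genes. *UBE2D3* (ENSG00000109332; chr4:102794383-102868896, minus strand) encodes a member of the UbcH5 family that works with a wide range of RING ligases. It measured 125 and 105 CPM in the controls against 343, 303 and 403 CPM in the sgMTSS1_1, _2 and _3 pools. The lowest knockout pool was well above the higher control, and the means were 115 ± 14.1 CPM (SD, n = 2) and 350 ± 50.3 CPM (SD, n = 3). The change was 3.04-fold (log2 fold change 1.60 ± 0.31 SE, adjusted p = 0.0238, edgeR).

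That call needed all knockout pools. Without sgMTSS1_1, sgMTSS1_2 or sgMTSS1_3 the log2 fold change of *UBE2D3* was 1.60, 1.74 and 1.53, with adjusted p-values of 0.0731, 0.0548 and 0.0926 (edgeR). Over all genes the calls fell to 111 (0.831%), 347 (2.59%) and 191 (1.44%) in those fits. With every library thinned to the smallest total, since the knockout libraries were the deeper ones, the log2 fold change was 1.58 and the gene was still called (adjusted p = 0.0244, edgeR).

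*UBE2D2* (chr5:139526431-139628434, plus strand), whose protein shares the UbcH5 role, measured 82.5 and 90.0 CPM in the controls against 156, 206 and 193 CPM in the knockout pools. The groups did not overlap and the controls lay close together. The log2 fold change was 1.1 ± 0.30 SE, which did not pass the test (adjusted p = 0.0629, edgeR). The gene was called with DESeq2 (adjusted p = 0.0134).

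The other UbcH5 genes gave no such difference. *UBE2D1* measured 9.07 and 3.28 CPM in the controls against 8.17, 4.87 and 5.39 CPM in the knockout pools, a log2 fold change of 0.01 ± 0.52 SE. *UBE2D4* measured 7.19 and 9.83 CPM against 9.08, 7.76 and 9.22 CPM, a log2 fold change of 0.03 ± 0.38 SE. For both genes the knockout pools lay within the range of the controls, and the sign of each change turned under other settings.

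In the UBE2E branch, whose members attach single ubiquitins, *UBE2E1* measured 149 and 226 CPM in the controls against 318, 270 and 312 CPM in the knockout pools. The groups did not overlap, but the log2 fold change of 0.68 did not pass the test (adjusted p = 0.234, edgeR). The 3′ end of *UBE2E1* overlaps *NKIRAS1* on the opposite strand, and whether the counting used strand is not given in the sources used here. *UBE2E3* overlapped between groups (log2 fold change 0.23), and 42.4% of the 50-base windows in the last 500 bases of its transcript have an exact copy elsewhere in the genome, where reads would map to several places and be removed. *UBE2E2* had 0 and 4 counts in the controls against 4, 2 and 4 in the knockout pools and was not tested. *UBE2W*, which modifies protein N-termini, had a log2 fold change of −0.28 with overlapping groups.

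**Figure D2:**
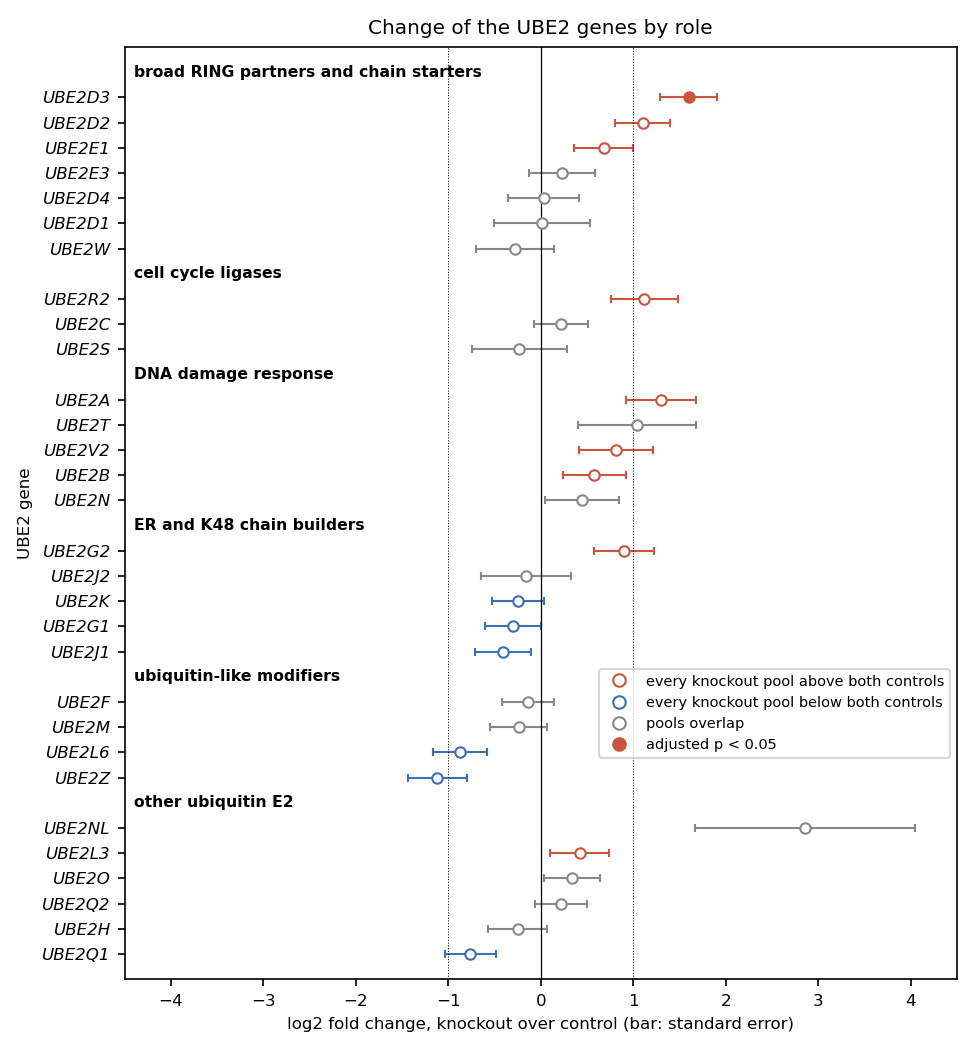
Log2 fold change of knockout over control pools for 30 of the 31 tested UBE2 genes, grouped by role, with the standard error from edgeR as a bar and dotted lines at −1 and 1. Red marks genes whose knockout pools all lie above both controls, blue those below, grey those that overlap, and the filled point is the called gene, *UBE2D3* at 1.60. The 5 tested DNA damage genes lie to the right of 0 and the 4 genes shown for ubiquitin-like modifiers to the left; *UBE2N* crossed 0 without sgCtrl pool 2 and *UBE2F* crossed it without the filter on low counts or with thinned libraries.

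Among the E2 enzymes of cell cycle ligases, 3 genes were tested and 0 were called (5.18% over all tested genes). *UBE2R2*, the paralog of *CDC34* that extends chains on substrates of cullin-RING ligases, measured 100 and 58.1 CPM in the controls against 131, 173 and 212 CPM in the knockout pools. All knockout pools lay above both controls, which differed widely between themselves. The log2 fold change was 1.12 ± 0.36 SE (adjusted p = 0.103, edgeR) and the gene was called with DESeq2 (adjusted p = 0.0342). *UBE2C*, which starts chains for the anaphase-promoting complex (APC/C), measured 132 and 102 CPM in the controls against 150, 134 and 124 CPM in the knockout pools. Its groups overlapped (log2 fold change 0.22, adjusted p = 0.691, edgeR).

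*UBE2S*, which extends the chains that UBE2C starts, had very few counts of its own, 13 and 23 in the controls against 28, 20 and 39 in the knockout pools. Relative to depth these were 4.06 and 6.85 CPM against 3.63, 3.61 and 6.79 CPM, and the log2 fold change was −0.23 ± 0.51 SE (adjusted p = 0.827, edgeR). The groups overlapped. The gene has a pair of processed pseudogenes on chromosome 17, *UBE2SP1* and *UBE2SP2*, and both have their own rows in the table.

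To show how alike the 3 loci are, the last 90 bases before the stop codon of the *UBE2S* mRNA (mRNA positions 776 to 865) are given from GRCh38 with the matching stretch of each pseudogene. They lie at chr19:55401439-55401528 (minus strand) for *UBE2S*, chr17:15704235-15704324 (minus strand) for *UBE2SP1* and chr17:18677667-18677756 (plus strand) for *UBE2SP2*. A capital letter marks a base that differs from *UBE2S*.
UBE2S: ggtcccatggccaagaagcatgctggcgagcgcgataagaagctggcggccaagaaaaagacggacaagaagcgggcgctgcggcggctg
UBE2SP1: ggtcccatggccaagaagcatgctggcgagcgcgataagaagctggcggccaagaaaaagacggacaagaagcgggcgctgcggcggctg
UBE2SP2: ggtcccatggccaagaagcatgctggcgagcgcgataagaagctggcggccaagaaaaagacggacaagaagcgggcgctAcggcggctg

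In this stretch *UBE2SP1* had 0 differences and *UBE2SP2* had 1. Over its whole length *UBE2SP1* matched mRNA positions 200 to 868 with 8 mismatches in 669 bases (98.8% identity), and *UBE2SP2* matched positions 370 to 866 with 9 mismatches in 497 bases (98.2%). Of all 50-base windows, the read length used, 54.4% in *UBE2SP1* and 55.8% in *UBE2SP2* were identical to a *UBE2S* transcript, so reads from them could not be placed uniquely. The matching stretch lies away from the end of the annotated 2559-base transcript, and 0 of the 451 windows in its last 500 bases have an exact copy elsewhere. Which 3′ end the *UBE2S* mRNA had in these cells was not tested.

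The pseudogene rows differed sharply between groups. *UBE2SP2* held 9 and 17 counts in the controls against 524, 325 and 465 in the knockout pools. This was a log2 fold change of 4.12 ± 0.41 SE, past the threshold (adjusted p = 0.00457, edgeR). *UBE2SP1* held 5 and 9 counts in the controls against 105, 58 and 90 in the knockout pools, also past it (log2 fold change 2.62 ± 0.48 SE, adjusted p = 0.0192, edgeR). Neither row overlapped between groups.

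Which locus gave the counts at the pseudogene rows was not tested. When the 3 rows were added together, as an alternative chosen after the data were seen, the sum was 8.44 and 14.6 CPM in the controls against 85.2, 72.8 and 103 CPM in the knockout pools. The sum gave a 7.54-fold change (log2 fold change 2.91 ± 0.38 SE, adjusted p = 0.00761, edgeR), and 2 UBE2 genes were then called. The row of *UBE2S* itself held 48.1% and 46.9% of this sum in the control pools but 4.26%, 4.96% and 6.57% in the knockout pools. The share of the sum at the *UBE2S* row thus differed between groups without overlap, and what set it was not tested.

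**Figure D3:**
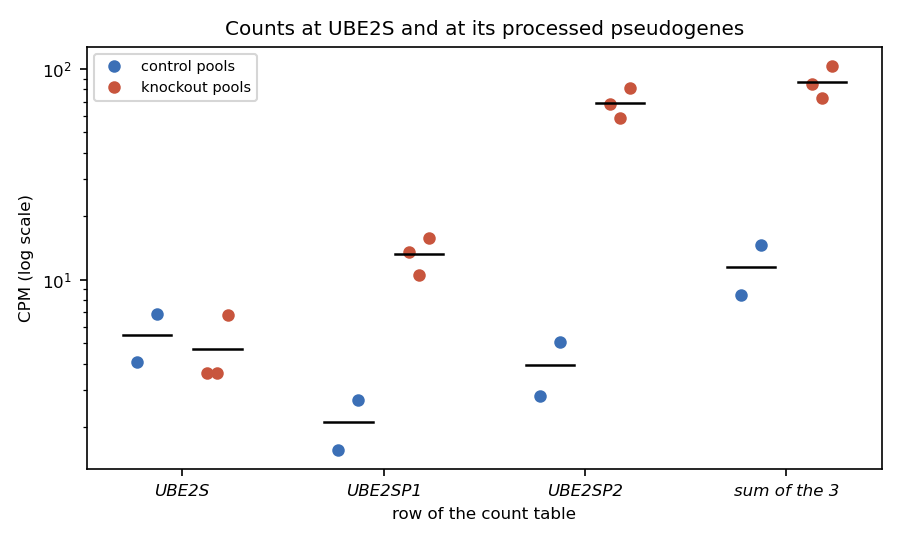
Level in CPM (log axis) at the rows of *UBE2S*, its pseudogenes *UBE2SP1* and *UBE2SP2*, and their sum, for the control pools (blue points) and the knockout pools (red points), with group means as black lines. The *UBE2S* row overlaps between groups, whereas the *UBE2SP2* row lies at 2.81 and 5.07 CPM in the controls against between 58.7 and 80.9 CPM in the knockout pools.

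Of 54 UBE2 pseudogenes in GENCODE, 23 had a row in the table and 9 passed the filter. Of those 9, *UBE2SP1* and *UBE2SP2* were called and the rest were not, while 5.18% of all tested genes were called. *UBE2D3P2* held 4 and 1 counts in the controls against 41, 14 and 10 in the knockout pools (log2 fold change 2.05, adjusted p = 0.179, edgeR), and with the pseudogene counts added to *UBE2D3* its log2 fold change was 1.60 (adjusted p = 0.0240, edgeR). *UBE2V1P6* went the other way, with 25 and 16 counts in the controls against 12, 15 and 12 in the deeper knockout libraries (log2 fold change −1.57, adjusted p = 0.103, edgeR).

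The E2 enzymes of the DNA damage response all had positive log2 fold changes, although 0 of the 5 tested were called. Their values ran from 0.45 to 1.30 with a median of 0.81, and the lowest, of *UBE2N*, was −0.0016 when sgCtrl pool 2 was left out. *UBE2A* and *UBE2B* are the human RAD6 enzymes, which ubiquitinate PCNA with RAD18 and histone H2B with RNF20 and RNF40. *UBE2A* measured 10.3 and 11.0 CPM in the controls against 32.8, 18.2 and 28.0 CPM in the knockout pools. The controls were nearly equal and every knockout pool was higher, yet the log2 fold change of 1.30 ± 0.38 SE did not pass the test (adjusted p = 0.0778, edgeR). It was called with DESeq2 (adjusted p = 0.0429).

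*UBE2B* measured 51.3 and 33.1 CPM in the controls against 80.8, 55.8 and 52.2 CPM in the knockout pools. The lowest knockout pool was barely above the higher control (log2 fold change 0.58, adjusted p = 0.347, edgeR).

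*UBE2N*, with *UBE2V1* or *UBE2V2* as a catalytically inactive partner, builds K63-linked chains. *UBE2V2* measured 134 and 292 CPM in the controls against 473, 304 and 341 CPM in the knockout pools. The groups did not overlap, but sgCtrl pool 2 lay close to the lowest knockout pool (log2 fold change 0.81, adjusted p = 0.262, edgeR). The value was 0.37 without sgCtrl pool 1 and 1.5 without sgCtrl pool 2. *UBE2N* measured 34.4 and 14.9 CPM against 41.1, 29.1 and 30.8 CPM, with overlap, and its 3′ end overlaps *NUDT4* on the opposite strand. *UBE2V1* had 3 and 3 counts in the controls against 3, 5 and 3 in the knockout pools and was not tested. Its 3′ end is shared with the readthrough gene *PEDS1-UBE2V1* on the same strand, so its reads could belong to either gene.

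*UBE2T*, the E2 of the Fanconi anemia pathway, measured 11.9 and 3.28 CPM in the controls against 26.8, 10.5 and 9.05 CPM in the knockout pools. The groups overlapped, with sgMTSS1_1 far above the rest, and the log2 fold change of 1.04 ± 0.64 SE did not pass the test (adjusted p = 0.364, edgeR). It was 0.36 without sgMTSS1_1, 0.42 without sgCtrl pool 2 and 2.25 without sgCtrl pool 1.

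The E2 enzymes of endoplasmic reticulum-associated degradation and K48 chain building had 0 calls among 5 tested genes (5.18% over all tested genes). Their median log2 fold change was −0.25. In every knockout pool 1 gene lay above and 3 genes below both controls, beside 22.2% and 19.2% of all tested genes. *UBE2G2*, which builds K48 chains in the degradation of endoplasmic reticulum proteins, measured 113 and 165 CPM in the controls against 248, 226 and 306 CPM in the knockout pools. The groups were separate (log2 fold change 0.90 ± 0.32 SE, adjusted p = 0.132, edgeR). Its paralog *UBE2G1*, a K48 chain builder for cullin 4 ligases, measured 37.2 and 28.3 CPM in the controls against 25.9, 28.2 and 25.6 CPM in the knockout pools (log2 fold change −0.30, adjusted p = 0.584, edgeR).

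*UBE2J1*, a membrane-anchored E2 of the endoplasmic reticulum, measured 45.3 and 35.2 CPM in the controls against 34.1, 25.6 and 30.8 CPM in the knockout pools (log2 fold change −0.41, adjusted p = 0.447, edgeR). *UBE2K*, which extends K48 chains, measured 230 and 246 CPM against 207, 213 and 181 CPM (log2 fold change −0.25, adjusted p = 0.640, edgeR). For *UBE2G1*, *UBE2J1* and *UBE2K* the groups were separate but the gap was small, and 0 of these passed the test. *UBE2J2* differed most between the controls, at 100 and 366 CPM, with 144, 244 and 237 CPM in the knockout pools between them, and its log2 fold change moved from −0.16 to 1.08 without sgCtrl pool 2.

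The 5 tested E2 enzymes that carry ubiquitin-like proteins had log2 fold changes from −1.12 to −0.14 (median −0.24), and 0 were called. *UBE2F* turned to 0.01 without the filter on low counts and to 0.03 in thinned libraries. Of all 14391 tested genes, 7439 had a negative log2 fold change and 5.18% were called. Every knockout pool lay below both controls for 2 of the 5 (40.0%) and above both for 0, beside 19.2% and 22.2% of all tested genes. *UBE2Z* (chr17:48908407-48929056, plus strand), which is charged by the E1 enzyme UBA6 with ubiquitin or FAT10, measured 134 and 226 CPM in the controls against 72.2, 95.0 and 81.9 CPM in the knockout pools. All knockout pools were below both controls, and the controls were further apart than the knockout pools. The log2 fold change was −1.12 ± 0.32 SE (adjusted p = 0.0740, edgeR), and it was −0.66 without sgCtrl pool 2. The gene was called with DESeq2 (adjusted p = 0.0378).

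*UBE2L6*, the E2 of the interferon-induced modifier ISG15, measured 81.9 and 103 CPM in the controls against 56.7, 43.1 and 51.3 CPM in the knockout pools. The groups did not overlap (log2 fold change −0.87 ± 0.29 SE, adjusted p = 0.108, edgeR). The NEDD8 enzymes *UBE2M* and *UBE2F* had log2 fold changes of −0.24 and −0.14, with overlapping groups.

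Among the remaining UBE2 genes, 6 were tested and 0 were called (5.18% over all tested genes). *UBE2Q1*, which encodes an E2 with a long N-terminal extension, measured 68.5 and 65.3 CPM in the controls against 35.7, 38.3 and 44.5 CPM in the knockout pools. The controls agreed closely and every knockout pool was lower (log2 fold change −0.76 ± 0.28 SE, adjusted p = 0.143, edgeR). *UBE2Q2* overlapped between groups (log2 fold change 0.22).

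*UBE2L3*, which works with HECT and RBR ligases, measured 56.3 and 32.5 CPM in the controls against 61.9, 56.7 and 59.9 CPM in the knockout pools. The knockout pools lay close together just above sgCtrl pool 1 (log2 fold change 0.42, adjusted p = 0.473, edgeR). *UBE2H* and *UBE2O*, which act in erythroid cells during terminal maturation, had log2 fold changes of −0.25 and 0.34, both with overlapping groups.

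*UBE2NL*, an intronless copy of *UBE2N* on the X chromosome, had 2 and 0 counts in the controls against 27, 3 and 17 in the knockout pools. It had the highest fitted log2 fold change of the family, 2.86 ± 1.19 SE, but sgMTSS1_2 lay below sgCtrl pool 1 in CPM and the adjusted p was 0.186 (edgeR). The fitted value rests on 2 counts in the controls, and was 6.75 without sgCtrl pool 1 and 1.91 without sgCtrl pool 2. The members left out by the filter were *UBE2V1* and *UBE2E2*, given above, *UBE2L5* with 0 and 1 counts in the controls against 2, 1 and 1 in the knockout pools, and *UBE2F-SCLY* with 1 and 0 against 1, 1 and 1.

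The balance between related E2 enzymes was compared as a ratio of CPM within each pool, for 8 pairs chosen with the values known. With 2 against 3 pools the smallest p that an exact two-sided permutation test can give is 0.2, so no pair could pass a threshold. The *UBE2L3* to *UBE2L6* ratio was 0.687 and 0.316 in the controls against 1.09, 1.31 and 1.17 in the knockout pools (exact permutation p = 0.2). The *UBE2G2* to *UBE2G1* ratio was 3.04 and 5.84 against 9.56, 8.03 and 11.9, and the *UBE2Q2* to *UBE2Q1* ratio was 0.886 and 0.772 against 1.95, 1.56 and 1.44, each with the same p. In these 3 pairs every knockout pool had the higher ratio. The *UBE2D3* to *UBE2D2* ratio was 1.52 and 1.17 against 2.20, 1.47 and 2.08 and overlapped (exact permutation p = 0.4). The remaining pairs, *UBE2A* with *UBE2B*, *UBE2E1* with *UBE2E3*, *UBE2J2* with *UBE2J1* and *UBE2V2* with *UBE2N*, overlapped as well.

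The number of UBE2 genes called differed between tools. limma-voom called 1 (*UBE2D3*), as edgeR did. DESeq2, the tool used in the study, which differs from the edgeR fit in its test, size factors and filter together, called 5 (*UBE2D3*, *UBE2D2*, *UBE2A*, *UBE2R2* and *UBE2Z*) of 30 with an adjusted p, at a background of 9.03% of 14082 genes. Of the 5, 4 were higher and 1 was lower in the knockout pools. All had separate groups and log2 fold changes beyond 1 or −1 in the edgeR fit as well.

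**Figure D4:**
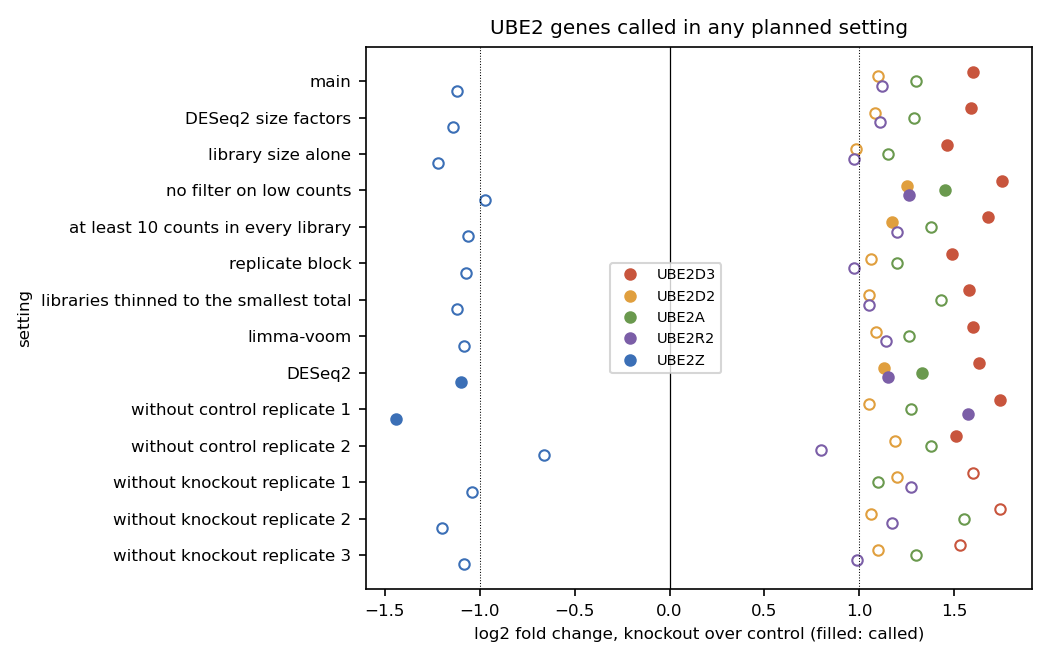
Log2 fold change of the 5 UBE2 genes called under any planned setting, with the settings as rows and a filled point where the gene was called; dotted lines mark −1 and 1. *UBE2D3* is called in 11 of the 14 rows and loses the call when any 1 knockout pool is left out, while *UBE2D2*, *UBE2A*, *UBE2R2* and *UBE2Z* are open in the top row.

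Genes that act with the E2 enzymes were taken from 11 lists holding 125 genes, 119 of them tested. Of these, 4 were called, all higher (3.36%), with 24 above both controls in every knockout pool and 24 below (20.2% each) and a median log2 fold change of −0.02. These shares lie near those of all tested genes, 5.18% called, 22.2% above and 19.2% below. E1 enzymes held 1 call among 9 tested genes. *SAE1*, the smaller subunit of the SUMO E1, measured 127 and 84.3 CPM in the controls against 255, 292 and 297 CPM in the knockout pools (log2 fold change 1.41 ± 0.32 SE, adjusted p = 0.0383, edgeR). Its partner *UBA2* measured 320 and 206 CPM against 147, 147 and 138 CPM, with separate groups in the opposite direction (log2 fold change −0.87 ± 0.30 SE, adjusted p = 0.122, edgeR).

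Ubiquitin and its relatives held 2 calls among 12 tested genes (16.7%), against 5.18% of all tested genes. *URM1*, a sulfur carrier that also modifies proteins, measured 62.5 and 60.2 CPM in the controls against 189, 143 and 190 CPM in the knockout pools (log2 fold change 1.50 ± 0.30 SE, adjusted p = 0.0258, edgeR). *RPS27A*, which encodes ubiquitin fused to a ribosomal protein, measured 292 and 431 CPM against 4084, 2115 and 3023 CPM (log2 fold change 3.09 ± 0.46 SE, adjusted p = 0.0111, edgeR). This gene has many near-identical processed copies, so its counts are uncertain. *UBB*, a polyubiquitin gene, lay below both controls, at 101 and 104 CPM against 61.0, 31.6 and 29.1 CPM (log2 fold change −1.34 ± 0.36 SE, adjusted p = 0.0638, edgeR).

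Among E3 ligases, the RBR and HECT list held 1 call in 12 tested genes (8.33%), against 5.18% of all tested genes. *RNF14*, an RBR ligase, measured 4.69 and 10.7 CPM in the controls against 28.7, 20.4 and 31.5 CPM in the knockout pools (log2 fold change 1.79 ± 0.44 SE, adjusted p = 0.0465, edgeR). The partners of the E2 groups above had 0 calls each. Over all tested genes 22.2% lay above both controls in every knockout pool and 19.2% below. For the APC/C, which uses UBE2C and UBE2S, 2 of 15 tested genes lay above and 4 below both controls. Its cullin-like subunit *ANAPC2* was at a log2 fold change of −1.66 (adjusted p = 0.108, edgeR). That value rests on 12 and 14 counts in the controls against 7, 9 and 7 in the knockout pools. For the DNA damage partners 2 of 12 lay above and 3 below, with *RNF40*, an H2B ligase subunit, at −1.40 (adjusted p = 0.128, edgeR). *RNF40* held 17 and 27 counts in the controls against 15, 12 and 20 in the knockout pools. Its sign was opposite to that of its partner E2 *UBE2A*. *RNF20*, which also acts on H2B, had the sign of *UBE2A*, at 0.32 with every knockout pool above both controls (adjusted p = 0.545, edgeR). SUMO ligases and proteases had 1 gene above and 6 genes below among 11 tested, with the ligase *PIAS4* at 1.07 (adjusted p = 0.143, edgeR).

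The remaining lists also had 0 calls. Their counts stand beside the same 22.2% above and 19.2% below of all tested genes. Cullins and neddylation partners had 3 of 15 above and 0 below, with *CUL7* at a log2 fold change of 0.94. Degradation partners at the endoplasmic reticulum had 3 of 11 above and 1 below, with *DERL1* at 1.02. The CTLH ligase, which works with UBE2H, had 3 of 11 above and 3 below, with *GID8* at 1.04. ISG15 ligases and protease had 1 of 4 above and 0 below, with *USP18* at −1.05 and overlapping groups (adjusted p = 0.302, edgeR). *USP18* held 8 and 27 counts in the controls against 18, 14 and 16 in the knockout pools. E2 and E2-like proteins with other names had 1 of 7 above and 1 below, with *UEVLD* at 1.66 (adjusted p = 0.149, edgeR). *UEVLD* held 3 and 5 counts in the controls against 37, 14 and 25 in the knockout pools. *CDC34*, the paralog of *UBE2R2*, measured 56.0 and 86.7 CPM against 50.1, 74.2 and 72.4 CPM and overlapped.

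**Figure D5:**
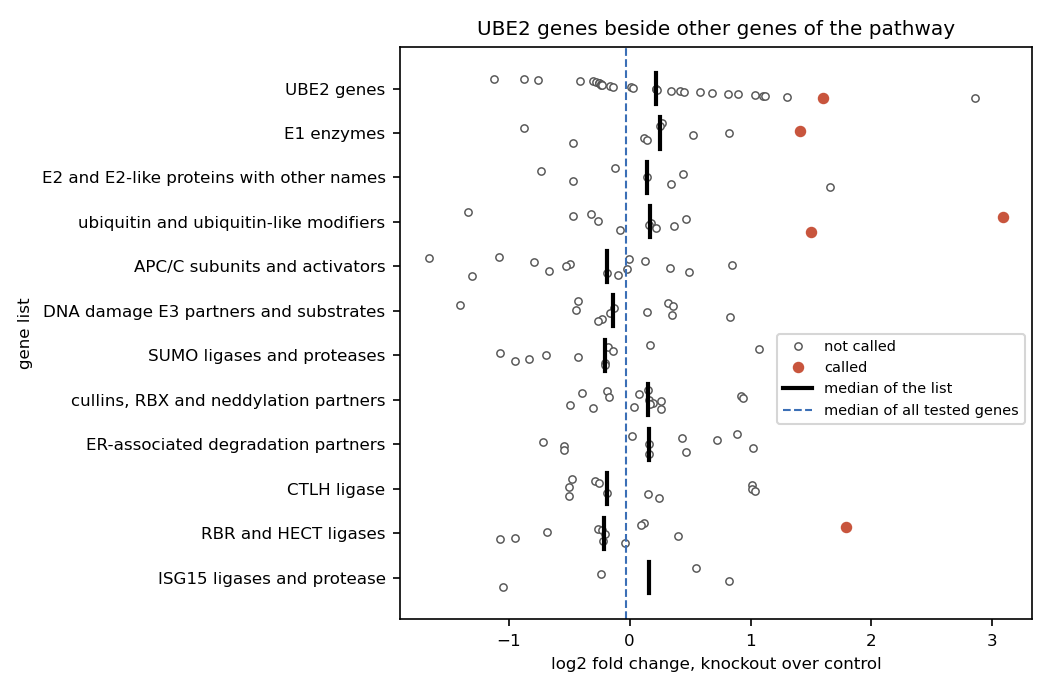
Log2 fold change of knockout over control pools for each tested UBE2 gene (top row) and for the genes of 11 pathway lists, with called genes as filled red points, the median of each list as a black bar and the median of all tested genes (−0.03) as a dashed blue line. The list medians lie between −0.21 and 0.25, and *RPS27A* at 3.09 lies furthest to the right.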

How the data were processed

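mRNA of the TF-1 pools was sequenced from its 3′ ends (QuantSeq FWD, 50-base single reads). Per the study's methods and the submitters' processing notes, the authors trimmed reads with BBDuk, checked them with FastQC 0.11.9, aligned them to GRCh38 with HISAT2 2.1.0, removed reads mapping to several places with SAMtools 1.10 and deposited raw gene counts. Removing such reads lowers counts of genes with near-identical copies. The counter, its annotation, use of strand and handling of PCR duplicates are not given in the sources used here. Each pool holds clones of 1 guide, the same guide in both control pools and a different guide in each knockout pool. The p-values measure the spread between the pools that were kept. The authors set pools aside for their distance from the centre of their own group, so this spread may be too small. Between knockout pools, differences of clones and of guides cannot be told apart.

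From the deposited counts, 14391 of 27328 genes passed filterByExpr (minimum count 10), were scaled by TMM and compared between the 3 knockout and 2 control pools with edgeR 4.0.16 (glmQLFit, glmQLFTest, R 4.3.3), with Benjamini-Hochberg adjustment over all tested genes. The script was tested on simulated data. CPM used the same scaling, the SE is the log2 fold change over the root of F, and exact permutation tests used scipy 1.17.1. Alternatives used DESeq2 1.42.0, limma-voom 3.58.1, other scalings and filters, thinned libraries, a replicate block and leaving out each pool. The members, gene lists, pairs and promoters were chosen with earlier results of these data known. Genes were named if they were called or had separate groups, if they were among the 5 highest or 5 lowest members, if the filter removed them, or if they were called or had the largest absolute change in a pathway list. Other genes, such as *UBE2D1*, *UBE2J2*, *UBB*, *UBA2* and *CDC34*, were named after their values were seen. Some genes that this rule would name are not reported here.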

Additional observations from a re-analysis of the deposited data

How the results depend on the processing

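The number of UBE2 genes called was 1 under size factors of DESeq2, library size alone, thinned libraries, limma-voom and no minimum fold change. In those fits between 4.34% and 5.56% of all tested genes were called. With no filter on low counts it was 4 of 35 (*UBE2A*, *UBE2D2*, *UBE2D3* and *UBE2R2*), beside 5.03% of all genes. With at least 10 counts in every library it was 2 of 30 (*UBE2D2* and *UBE2D3*), beside 5.6%. DESeq2 called 5 of 30, beside 9.03%. With pseudogene counts added, an alternative chosen after the data were seen, it was 2 of 32, beside 5.17%. Leaving out any 1 knockout pool gave 0 calls, when between 0.831% and 2.59% of all tested genes were called. A fit with 1 control pool assumes that the lone pool varies like the others.

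The median log2 fold change of the UBE2 genes, 0.22, was 0.07 with library size alone, which moved the median of all genes to −0.17, 0.36 with no filter, 0.11 in thinned libraries and from 0.08 to 0.37 with 1 pool left out. UBE2 genes above both controls numbered from 10 to 16 and those below from 7 to 10 with 1 pool left out, when the shares of all genes also rose, to between 25.6% and 38.3% above and between 21.8% and 36.1% below. With no filter 3 UBE2 genes were below, beside 13.1% of all genes. The pathway lists held 2 calls in thinned libraries and from 1 to 9 with 1 pool left out, the highest without sgCtrl pool 1.

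Over all genes 745 of 14391 (5.18%) were called in the reported fit, 1374 of 27328 (5.03%) with no filter and 1272 of 14082 (9.03%) with DESeq2. The number of a control pool and of a guide is shared only as a label: the difference between pools 1 and 2 correlated at 0.17 across genes between the groups. With the replicate block 1 UBE2 gene (*UBE2D3*) and 1094 of all genes (7.6%) were called, the median was 0.17, and *UBE2D4* turned to −0.0045.

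Of 400 values of single UBE2 genes under alternatives, 370 kept their direction and side of the threshold and 17, of 8 genes, changed sign. With library size alone *UBE2D1* was −0.18 and *UBE2D4* −0.10. Thinned libraries gave 0.03 for *UBE2F* and −0.05 for *UBE2Q2*, no filter gave 0.01 for *UBE2F*, limma-voom 0.08 for *UBE2J2*, and pseudogene counts 2.91 for *UBE2S*. With 1 pool left out the lowest and highest values of the genes that changed sign were −0.52 and 0.92 for *UBE2D1*, −0.17 and 0.3 for *UBE2D4*, −0.8 and 1.08 for *UBE2J2*, −0.0016 and 1.19 for *UBE2N*, −0.56 and 0.22 for *UBE2S*, and −0.51 and 0.03 for *UBE2W*. The causes were not tested.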
